A study of Homo sapiens with 6 samples.

Results

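The 10 genes described here are secreted inflammatory mediators and acute phase proteins with the enzyme, feedback inhibitors and surface receptor most often discussed beside them: CCL2, IL1A, IL1B, IL6, SAA1, LCN2, PTGS2, NFKBIA, TNFAIP3 and CD180. They are 10 of the 19503 named genes measured, were taken by symbol from the deposited expression table, and were selected with values from these same libraries known. Their own levels and differences are therefore given as a description with no p, and the number that passed the fit's threshold is given once beside that of all genes, not as a result. RNA came from HLE, an established human line of hepatocellular carcinoma, infected with lentivirus at a multiplicity of 10 and selected in puromycin for 7 days. The control line carried a control shRNA, and the lines kd.1 and kd.2 each carried an shRNA against a different site in the coding region of ZNF281, a zinc-finger transcription factor. Each of the 3 groups is 1 selected line with 2 libraries, and the labels do not say whether the 2 came from separate cultures. Any p therefore reflects no more than the spread between duplicate libraries, pooled over the 3 groups, which may be technical. The values are FPKM, fragment counts scaled to transcript length and library size, a unit inferred from the values.

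NF-kB is a family of dimeric transcription factors that IkB proteins hold in the cytoplasm until signals from interleukin-1, tumour necrosis factor or Toll-like receptors free them. Many of the genes here are known NF-kB targets, and NFKBIA and TNFAIP3 encode inhibitors that shut the signal off again. In liver, interleukin-1 and interleukin-6 are the classical inducers of acute phase proteins such as serum amyloid A, lipocalin-2 and complement components, through NF-kB, STAT3 and C/EBP factors.

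ZNF281 itself stood at 9.52 and 8.43 FPKM in the control libraries, 4.35 and 4.71 in kd.1 and 4.37 and 4.47 in kd.2, which is 50.5% and 49.2% of the control mean. Column sums ran from 512672.6 to 575886.9 FPKM, and duplicates differed on the log2 scale with an SD of 0.24 in the control, 0.15 in kd.1 and 0.14 in kd.2, over the 10851 named genes that reached 1 FPKM in at least 2 libraries. Those 10851 genes were tested with limma. Of 10 measured hepatocyte markers, 9 were at 0.17 FPKM or less in every library. The other was HNF4A, a hepatocyte transcription factor, at 0.55 and 0.6 FPKM in the control, 1.15 and 1.2 in kd.1 and 0.45 and 0.51 in kd.2, and the 10 summed to 0.8 to 0.84 FPKM in the control, 1.5 in both kd.1 libraries and 0.59 to 0.73 in kd.2. These are bulk measurements, in which fewer cells making a transcript and less of it per cell cannot be told apart.

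The 10 genes did not move as a block. SAA1 and LCN2 stood lower in both knockdown lines and PTGS2 stood higher in both. CCL2 and NFKBIA stood lower in kd.1 and overlapped the control in kd.2. CD180 stood lower in kd.1 and higher in kd.2. IL1A and IL1B stood higher in kd.1 and lower in kd.2. TNFAIP3 and IL6 overlapped the control in both lines. IL1A and IL1B reached the level filter through kd.1 alone, CCL2, SAA1 and CD180 through the control and kd.2, and IL6 did not reach it. Of the 9 that did, 3 were called higher and 5 lower in kd.1, where 15.8% and 13.4% of all tested genes were called higher and lower at an adjusted p under 0.05. In kd.2 2 were called higher and 4 lower, with 15.7% and 22.2% of all tested genes called higher and lower. Between kd.2 and kd.1 4 were called higher and 2 lower, against 11.9% and 20.3% of all tested genes. Because the genes were picked on these contrasts, nothing is read from those counts. Their median log2 difference was -0.46 in kd.1 and -0.03 in kd.2, beside 0.02 and -0.03 over all tested genes.

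**Figure D1:**
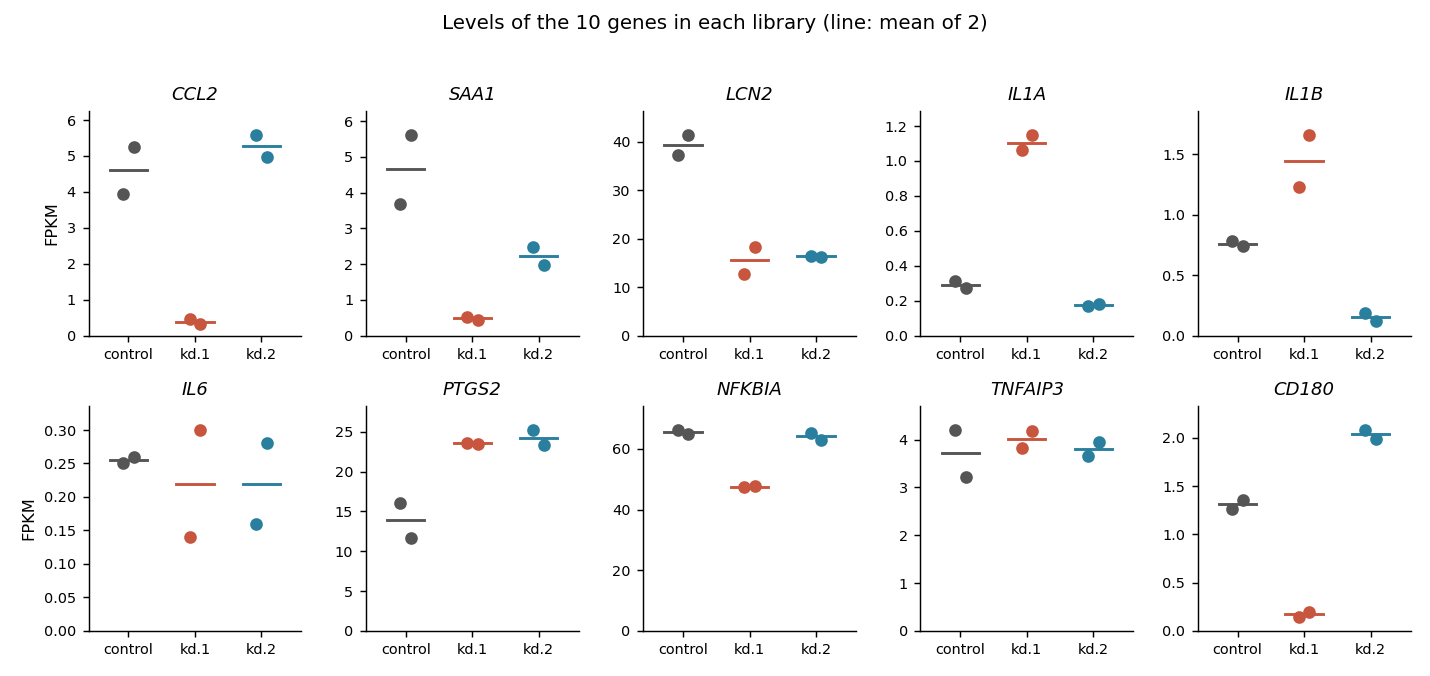
FPKM (vertical axis, from 0) of each of the 10 genes in the control, kd.1 and kd.2 lines; points are the 2 libraries and the line their mean. CCL2 and CD180 are near the axis in kd.1 only, while LCN2 is at 12.74 to 18.34 FPKM in all 4 knockdown libraries.

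**Figure D2:**
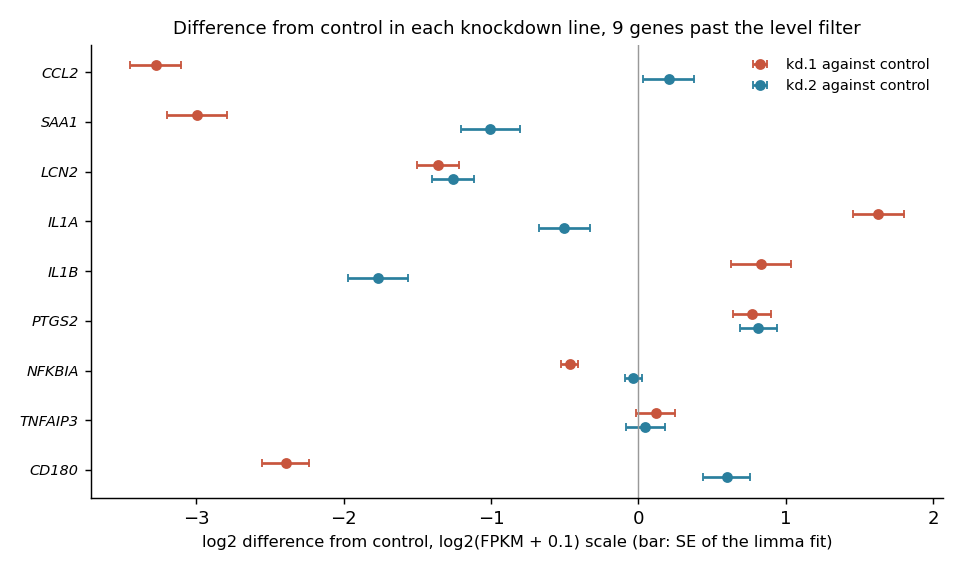
Log2 difference from control (horizontal axis) of the 9 genes past the level filter in kd.1 and kd.2; points are estimates and bars the SE of the limma fit. CCL2, CD180, IL1A and IL1B lie on opposite sides of 0 in the 2 lines, with CCL2 at only 0.21 in kd.2. LCN2 and PTGS2 lie together.

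IL1A and IL1B encode the interleukin-1 ligands alpha and beta, which signal through the same receptor. IL1A stood at 0.31 and 0.27 FPKM in the control, at 1.06 and 1.15 in kd.1 and at 0.17 and 0.18 in kd.2. No group overlapped another: kd.1 was the high line and kd.2 the low one. On the log2(FPKM + 0.1) scale used throughout, which understates differences of low genes, IL1A differed from control by 1.63 in kd.1 and by -0.50 in kd.2, with an SE of 0.17. IL1B stood at 0.78 and 0.74 FPKM in the control, 1.23 and 1.66 in kd.1 and 0.19 and 0.12 in kd.2, the same order of the 3 lines and again without overlap. Its log2 differences were 0.83 and -1.77, with an SE of 0.20. Since both reached the filter through kd.1 alone, a difference was built into their being kept. With a pseudocount of 1 instead of 0.1 the differences were 0.71 and -0.14 for IL1A and 0.47 and -0.61 for IL1B. IL6, the main inducer of hepatic acute phase genes, was under the filter, at 0.25 and 0.26 FPKM in the control, 0.14 and 0.30 in kd.1 and 0.16 and 0.28 in kd.2. Both knockdown pairs spanned the control values of IL6. Some fibroblast markers differed between the lines as well. Of 3 tested, DCN and COL1A1 were called higher in kd.1 and DCN lower in kd.2, while LUM was not called. Of the untested markers, COL3A1 stood lower in kd.1, PDGFRB lower in both knockdown lines and FAP lower in kd.2. The 10 measured summed to 270.61 to 285.15 FPKM in the control, 282.58 to 302.71 in kd.1 and 232.08 to 233.32 in kd.2, nearly all of it LUM and DCN, with 7 or 8 of the 10 under 1 FPKM and PDGFRA at or below 0.03. Their part in the interleukin-1 levels was not tested.

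The interleukin-1 genes lie side by side on chromosome 2, both on the minus strand, IL1A at chr2:112773915-112784590 and IL1B at chr2:112829751-112836903 on GRCh38, 45161 bases apart. Their promoters are shown because the pair had the same order of levels over the 3 lines. The windows are the 250 bases before a RefSeq transcription start on GRCh38.p14 (for IL1A the more upstream of 2), at chr2:112784494-112784743 and chr2:112836780-112837029, both on the minus strand and read 5′ to 3′. Capitals mark matches on either strand to the C/EBP motif TTNNGNAA or the AP-1 motif TGANTCA.
IL1A: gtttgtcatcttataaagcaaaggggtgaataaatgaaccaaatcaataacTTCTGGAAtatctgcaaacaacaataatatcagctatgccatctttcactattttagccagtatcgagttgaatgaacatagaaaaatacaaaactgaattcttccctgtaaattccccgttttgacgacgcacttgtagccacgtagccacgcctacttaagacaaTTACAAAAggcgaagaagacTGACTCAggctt
IL1B: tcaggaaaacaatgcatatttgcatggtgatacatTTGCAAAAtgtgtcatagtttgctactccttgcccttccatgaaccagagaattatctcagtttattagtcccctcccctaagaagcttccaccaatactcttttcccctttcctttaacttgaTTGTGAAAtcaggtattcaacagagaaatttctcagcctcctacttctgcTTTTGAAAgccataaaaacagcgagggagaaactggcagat
IL1A held 2 C/EBP matches and 1 AP-1 match, the latter 12 to 6 bases before the start. The window of its other RefSeq start, at chr2:112784401-112784650, held 1 C/EBP match and 2 AP-1 matches. IL1B held 3 C/EBP matches. A C/EBP match was in 33.2% and an AP-1 match in 6.6% of all 35116 RefSeq windows of that length. Neither IL1A nor IL1B held a match to the kappaB consensus in these 250 bases, which 10.0% of windows did.

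CCL2 encodes the chemokine that draws monocytes through the receptor CCR2. It lies on chromosome 17 at chr17:34255218-34257203, plus strand. CCL2 stood at 3.94 and 5.26 FPKM in the control, 0.45 and 0.32 in kd.1 and 5.59 and 4.97 in kd.2. Both kd.1 libraries were far below the other 4, and kd.2 overlapped the control. The kd.1 mean was 0.385 ± 0.0919 FPKM and the control mean 4.6 ± 0.933 (SD, n = 2 each), a log2 difference of -3.28 with an SE of 0.17, or 9.68-fold lower. With a pseudocount of 1 it was -2.01. In kd.2 the log2 difference was 0.21, with a range of 0.003 to 0.411 over the alternatives. The receptor transcript CCR2 was at 0.01 to 0.03 FPKM in all 6 libraries. The neighbouring chemokine gene CCL7, 13018 bases away, was at 0 in both kd.1 libraries at 0.03 and 0.15 FPKM in the control and at 0.06 and 0 in kd.2.

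Other ligands were followed on lists drawn up, like all lists here, with earlier results of these data in view. Each count of calls on a list stands beside the shares of all tested genes called higher and lower. Those were 15.8% and 13.4% in kd.1, 15.7% and 22.2% in kd.2, and 11.9% and 20.3% in kd.2 against kd.1. Most chemokine transcripts were scarce: 5 of the 22 measured reached the filter, 0 were called in kd.1 and 2 (40.0%) were called lower in kd.2. By limma, 2 of the 5 were lower in kd.1 at an unadjusted p under 0.05. CCL5, a T cell attractant, fell in kd.2 (5.68 ± 0.17 to 3.885 ± 0.177 FPKM, log2 -0.54, limma adjusted p = 0.00334). CXCL2 and CXCL3, neutrophil attractants of the same subfamily as CXCL8, had control means of 6.705 and 2.56 FPKM and were not called in any comparison. CXCL8 stayed at 0.2 to 0.29 FPKM and CXCL1 at 0 to 0.02. Of the other cytokines, 7 of 19 measured were tested, and 5 of them (71.4%) were called lower in each knockdown line with 1 (14.3%) called higher. IL32, an inducer of inflammatory cytokines in monocytes, fell in both lines (4.1 ± 0.0283 FPKM in the control, 2.04 ± 0.127 in kd.1 and 2.19 ± 0.438 in kd.2, limma adjusted p = 0.00157 and 0.00226). IL18, a cytokine of the interleukin-1 family and the most abundant of the list at a control mean of 160.8 FPKM, fell to 115.7 in kd.1 (limma adjusted p = 0.00158). It was also called lower in kd.2, at 133.0 FPKM, but not in all alternatives. OSM, a cytokine of the interleukin-6 family, fell in kd.1 (log2 -0.95, limma adjusted p = 0.000864) and was higher in kd.2 than in kd.1 (0.74, limma adjusted p = 0.00209). IL15 fell in kd.2 (log2 -0.78, limma adjusted p = 0.00225) and was lower there than in kd.1 (-0.75, limma adjusted p = 0.00215). TNF, the classical NF-kB inducer, was at 0.04 to 0.13 FPKM throughout.

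SAA1 encodes serum amyloid A1, a major acute phase apolipoprotein, and lies at chr11:18266174-18269977 on the plus strand. Its level was 3.68 and 5.62 FPKM in the control, 0.53 and 0.44 in kd.1 and 2.47 and 1.99 in kd.2. The control was highest, kd.1 lowest and kd.2 between them, with no overlap. SAA1 differed from control by -3.00 in kd.1 (7.97-fold lower) and by -1.01 in kd.2 (2.01-fold lower) on the log2 scale, with an SE of 0.20. With a pseudocount of 1 the kd.1 difference was -1.91. The near-identical copy SAA2, 17531 bases away, stood at 0.77 and 0.47 FPKM in the control, 0.04 and 0.09 in kd.1 and 0.24 and 0.36 in kd.2, the same order of the 3 lines. How fragments were divided between SAA1 and SAA2 is not given in the sources used here, so the level of either is uncertain.

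Complement genes on the acute phase list had the SAA1 order of the 3 lines, control above kd.2 above kd.1. Of 24 measured acute phase genes 8 were tested; 4 were called lower and 1 higher in kd.1, and 5 lower and 0 higher in kd.2 (limma; also 0 higher at an unadjusted p under 0.05). C1R, the protease that starts the classical complement pathway, fell from 16.63 ± 0.099 FPKM to 4.04 ± 0.24 in kd.1 (log2 -2.02, SE 0.08, limma adjusted p = 7.74e-06) and to 9.145 ± 0.0212 in kd.2 (-0.86, limma adjusted p = 0.000223). Its difference between the lines was 1.16 (limma adjusted p = 2.53e-05). C1S, the protease that C1R activates, fell from 46.84 ± 0.686 to 23.19 ± 1.61 FPKM in kd.1 (-1.01, limma adjusted p = 4.75e-05). CFB, factor B of the alternative pathway, fell from 6.105 ± 0.0778 to 2.705 ± 0.559 in kd.1 (-1.16, limma adjusted p = 0.000551), and C3, the central component, from 109.61 and 90.38 to 55.06 and 61.52 (-0.77, limma adjusted p = 0.00114). In kd.2 the same 3 genes stood at 36.48, 4.605 and 76.88 FPKM, but those calls were not stable. Without kd.2 replicate 1 or 2 the limma adjusted p was 0.0505 to 0.0529 for C1S and 0.0624 to 0.164 for C3, and without any one of the control or kd.2 libraries it was 0.0561 to 0.198 for CFB. CP, the copper carrier ceruloplasmin, was the 1 called higher in kd.1, at 9.02 and 10.02 FPKM against 6.82 and 5.69 in the control; it is named after its values were seen. The liver acute phase transcripts CRP, HP and ORM1 were at 0.05 FPKM or less in every library. The fibrinogen genes FGA, FGB and FGG were also under the filter but highest in kd.1, unlike SAA1: FGG stood at 0.21 and 0.13 FPKM in the control, 0.35 and 0.5 in kd.1 and 0.19 and 0.15 in kd.2. HNF4A was highest in kd.1 as well, and the part of hepatocyte markers in the acute phase levels was not tested.

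**Figure D3:**
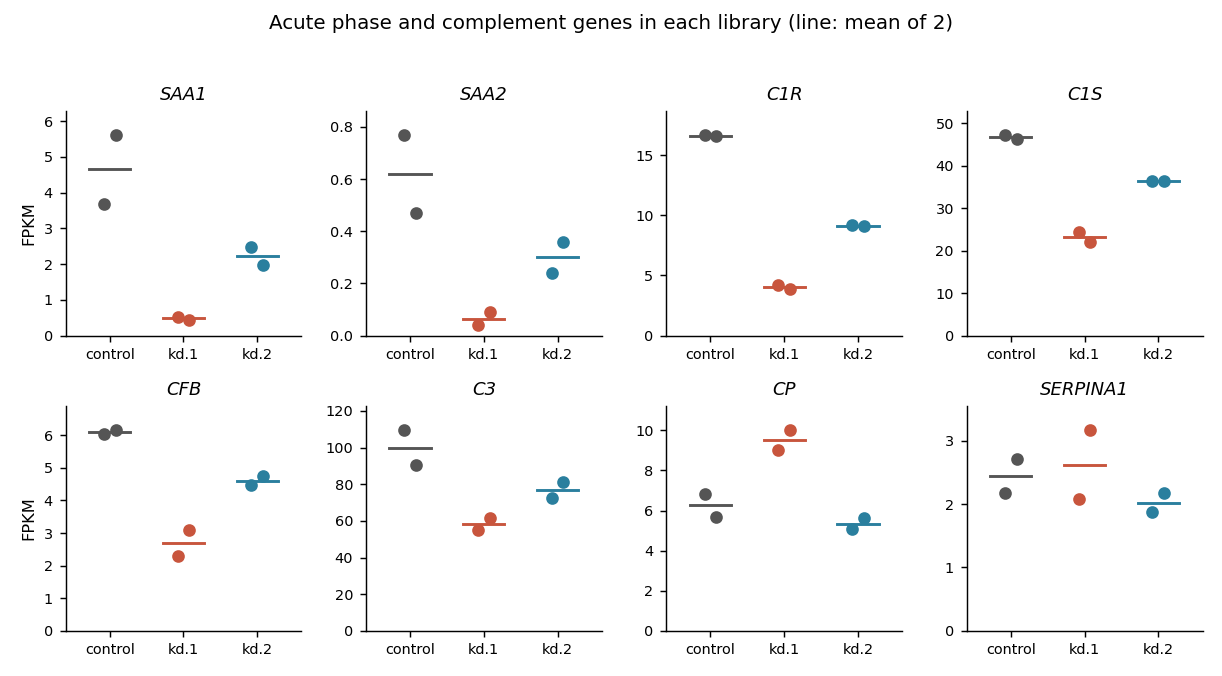
FPKM (vertical axis, from 0) of SAA1, its copy SAA2 and 6 further acute phase and complement genes in each line; points are the 2 libraries and the line their mean. SAA1, SAA2, C1R, C1S, CFB and C3 are highest in the control and lowest in kd.1, while CP is highest in kd.1 and SERPINA1 overlaps between lines.

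LCN2 encodes lipocalin-2, which binds bacterial iron carriers, and was the second most abundant of the 10 genes after NFKBIA in the control. It stood at 37.33 and 41.46 FPKM in the control, 12.74 and 18.34 in kd.1 and 16.52 and 16.32 in kd.2. All 4 knockdown libraries were below both controls, and the knockdown lines overlapped each other. Means were 39.39 ± 2.92, 15.54 ± 3.96 and 16.42 ± 0.141 FPKM (SD, n = 2 each). The log2 differences from control were -1.36 in kd.1 and -1.26 in kd.2, with an SE of 0.14, and over all alternatives they ranged from -1.62 to -1.10 and from -1.33 to -1.16. SLC22A17, which encodes a lipocalin-2 receptor, was at 0.01 to 0.04 FPKM. The summed level of endothelial markers was also lower in the knockdown lines. The 8 measured summed to 16.86 to 17.23 FPKM in the control, 11.64 to 12.78 in kd.1 and 12.44 to 12.74 in kd.2, mostly EGFL7. Of 4 tested, EGFL7 and CDH5 were called lower in both lines, and ESAM and TIE1 were not called. TIE1 means were 0.945, 1.26 and 0.97 FPKM in the control, kd.1 and kd.2. Of the defining markers, CDH5 was at 2.42 and 1.86 FPKM in the control, 0.61 and 1.01 in kd.1 and 0.69 and 0.82 in kd.2. PECAM1 overlapped between lines, at 0.52 and 0.62 FPKM in the control, 0.52 and 0.39 in kd.1 and 0.47 and 0.57 in kd.2. VWF was at 0.08 or less. CLDN5 stood higher in kd.1, at 0.14 FPKM in both libraries, against 0.04 and 0.05 in the control and 0.04 and 0.01 in kd.2. The part of endothelial markers in the LCN2 level was not tested. The tested genes whose mean-centred log2 profile over the 6 libraries was closest to that of LCN2 were the same endothelial marker CDH5, at a Euclidean distance of 0.44, and CCDC92, at 0.46. C9orf16, 6805 bases from LCN2 and noted after its values were seen, stood at 87.66 and 109.88 FPKM in the control, 64.24 and 58.4 in kd.1 and 58.78 and 61.26 in kd.2. It is 1 of 20 measured genes within 300000 bases of LCN2, of which 18 were tested. Among these, C9orf16 and DPM2 were called lower in both knockdown lines, and FAM102A and GOLGA2 were called higher in both.

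NFKBIA encodes IkB alpha, the inhibitor that NF-kB itself induces, and was the most abundant of the 10. It stood at 66.25 and 64.96 FPKM in the control, 47.31 and 47.75 in kd.1 and 65.31 and 62.92 in kd.2. Both kd.1 libraries were below all others, and kd.2 overlapped the control. The log2 difference was -0.46 in kd.1 with an SE of 0.06, and -0.39 after rescaling each library to a common sum. In kd.2 it was -0.03, and 0.07 after that rescaling, so no direction is given. APIP and MYADM had the closest profiles over the 6 libraries, at distances of 0.06 and 0.07. TNFAIP3, which encodes the ubiquitin-editing inhibitor A20, stood at 4.2 and 3.22 FPKM in the control, 3.83 and 4.18 in kd.1 and 3.66 and 3.95 in kd.2. The control libraries of TNFAIP3 bracketed all 4 knockdown libraries, and its log2 differences of 0.12 and 0.05, with ranges of -0.068 to 0.305 and -0.14 to 0.233 over the alternatives, had an SE of 0.13. 

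The promoters of LCN2 and NFKBIA are shown because both hold a kappaB match and the genes had different orders of levels over the lines. LCN2 lies on the plus strand, with its window at chr9:128149203-128149452, and NFKBIA on the minus strand, with its window at chr14:35404750-35404999 (RefSeq, GRCh38.p14, 250 bases before the start, 5′ to 3′). Capitals mark matches on either strand to the kappaB consensus, to TTNNGNAA or to TGANTCA.
LCN2: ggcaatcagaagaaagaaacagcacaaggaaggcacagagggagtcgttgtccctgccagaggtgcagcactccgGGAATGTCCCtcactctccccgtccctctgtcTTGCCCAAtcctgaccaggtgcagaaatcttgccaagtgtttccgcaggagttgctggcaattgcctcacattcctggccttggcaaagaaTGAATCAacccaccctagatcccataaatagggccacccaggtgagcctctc
NFKBIA: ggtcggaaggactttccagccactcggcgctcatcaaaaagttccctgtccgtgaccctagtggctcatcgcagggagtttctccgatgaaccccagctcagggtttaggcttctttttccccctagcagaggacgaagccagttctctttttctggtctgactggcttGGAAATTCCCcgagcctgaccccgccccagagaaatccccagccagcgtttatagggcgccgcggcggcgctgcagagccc
The kappaB match of LCN2 lay 175 to 166 bases before the start and that of NFKBIA 81 to 72 bases before it. Only LCN2 of this pair also held a C/EBP match, 143 to 136 bases before the start, and an AP-1 match, 52 to 46 before it. Among the 8 genes of the 10 found in the RefSeq promoter table, 4 held a kappaB match (TNFAIP3, IL6, LCN2 and NFKBIA), 7 a C/EBP match and 3 an AP-1 match. In TNFAIP3 the C/EBP match overlapped 1 of its 2 kappaB matches. A match describes the letters only.

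PTGS2 encodes cyclooxygenase-2, the inducible enzyme that turns arachidonic acid into prostaglandin H2. PTGS2 was at 16.11 and 11.71 FPKM in the control, 23.58 and 23.48 in kd.1 and 25.22 and 23.31 in kd.2. All 4 knockdown libraries were above both controls and the knockdown lines overlapped each other. The log2 differences were 0.77 and 0.82 with an SE of 0.13, and ranged from 0.54 to 1.00 and from 0.59 to 1.04 over the alternatives. ZNF721 and SLC35A3 had the closest profiles, at distances of 0.12 and 0.15.

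Of 20 prostanoid genes measured 10 were tested, with 2 called higher and 3 lower in each knockdown line (20.0% and 30.0%). PLA2G4A, the cytosolic phospholipase that releases arachidonic acid, lies 148526 bases from PTGS2 on chromosome 1. PLA2G4A rose in both lines, from 40.97 ± 4.09 FPKM to 71.82 ± 1.64 in kd.1 (log2 0.81, limma adjusted p = 0.000206) and 60.75 ± 0.573 in kd.2 (0.57, limma adjusted p = 0.00109). PTGS1, the constitutive cyclooxygenase, fell in kd.1 from 74.31 ± 5.05 to 51.05 ± 2.75 FPKM (-0.54, limma adjusted p = 0.00115) and differed by 0.81 between kd.2 and kd.1 (limma adjusted p = 0.000112). In kd.2 it stood at 89.32 FPKM, a difference whose limma adjusted p was 0.0964 to 0.151 without either kd.2 library. PTGES, which makes prostaglandin E2 from the cyclooxygenase product, fell in kd.1 (-0.42, limma adjusted p = 0.00506) and stood at 38.06 FPKM in kd.2 against 48.02 in the control, where the adjusted p of limma was 0.0728 to 0.0919 without either kd.2 library. HPGD, the enzyme that inactivates prostaglandins, fell in kd.2 (4.41 ± 0.0283 to 2.56 ± 0.113 FPKM, log2 -0.76, limma adjusted p = 0.000798). It was also called lower in kd.1, at 3.42 FPKM, but not in all alternatives. The prostaglandin E2 receptor gene PTGER4 was at 1.48 and 1.15 FPKM in the control, 1.66 and 1.34 in kd.1 and 0.75 and 0.8 in kd.2.

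CD180 encodes a Toll-like receptor homologue known from B cells, where it pairs with the protein MD-1, the product of LY86. It stood at 1.26 and 1.36 FPKM in the control, 0.14 and 0.2 in kd.1 and 2.08 and 1.99 in kd.2. No group overlapped another, with kd.1 lowest and kd.2 highest. The log2 differences were -2.39 and 0.60 with an SE of 0.16; with a pseudocount of 1 they were -0.98 and 0.39. LY86 was at 0.03 to 0.11 FPKM. Of 15 leukocyte markers 13 were under 1 FPKM in the control and kd.1 libraries and 14 in those of kd.2. Of the defining ones PTPRC was at 0.02 to 0.07 and MS4A1 at 0 to 0.01. The 15 summed to 24.12 to 28.91 FPKM in the control, 33.62 to 34.1 in kd.1 and 32.35 to 34.67 in kd.2, of which CD68, a lysosomal protein, made up 22.13 to 32.47.

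The NF-kB machinery was described next. Of the 14 kinase and subunit genes, all tested, 0 were called higher and 3 (21.4%) lower in kd.1. In kd.2 2 were called higher and 0 lower, and the 14.3% higher was close to the 15.7% of all tested genes. In kd.2 against kd.1 3 (21.4%) were called higher and 0 lower. At an unadjusted p under 0.05 limma gave 1 higher in kd.1 and 0 lower in both comparisons of kd.2. RELA, the main activating subunit, had means of 34.5, 35.26 and 34.36 FPKM and was not called (limma adjusted p = 0.719, 0.951 and 0.668). RELB, a subunit of the alternative pathway and itself an NF-kB target, fell in kd.1 from 2.73 ± 0.24 to 1.51 ± 0.198 FPKM (-0.82, limma adjusted p = 0.0023) and was higher in kd.2 than in kd.1 (0.85, limma adjusted p = 0.00138). NFKB1, the p105 precursor of the p50 subunit, was also higher in kd.2 than in kd.1 (15.54 against 11.07 FPKM, log2 0.49, limma adjusted p = 0.00342). For NFKB2, the precursor of p52, the means were 38.93, 32.34 and 40.56 FPKM. Its kd.1 call was lost without kd.1 replicate 1 or 2 (limma adjusted p = 0.0631 to 0.144).

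Targets and receptors of the pathway included ICAM1 and IRAK1, with levels lowest in kd.1 and highest in kd.2. Of 11 tested survival and adhesion targets 5 were called lower and 2 higher in kd.1 (45.5% and 18.2%), and 2 each way in kd.2 (18.2% each). ICAM1, a leukocyte adhesion molecule, stood at 4.65 and 4.1 FPKM in the control, 2.66 and 2.64 in kd.1 and 5.97 and 6.47 in kd.2. It fell in kd.1 (-0.70, limma adjusted p = 0.00154) and differed between the lines by 1.199 (limma adjusted p = 7.46e-05). Its kd.2 call (0.50) was lost without kd.2 replicate 2, at a limma adjusted p of 0.0683. SOD2, mitochondrial superoxide dismutase, rose in kd.2 from 54.46 ± 5.11 to 83.91 ± 3.39 FPKM (limma adjusted p = 0.000744). XIAP, an inhibitor of caspases, rose in kd.1 (0.58, limma adjusted p = 0.00164). BCL2L1, which encodes BCL-xL, fell in kd.2 (-0.46, limma adjusted p = 0.0017). It was also called lower in kd.1, at 33.13 against 39.21 FPKM in the control, but not in all alternatives. Of 15 tested receptors and adaptors 5 were called higher and 4 lower in kd.1 (33.3% and 26.7%, beside 15.8% and 13.4% of all tested genes). In kd.2 4 were called higher and 1 lower (26.7% and 6.7%, beside 15.7% and 22.2%). The 5 called higher in kd.1 were TLR6, IRAK4, TRADD, RIPK1 and TICAM1, named after their values were seen. IRAK1, the kinase recruited to the interleukin-1 receptor, stood at 86.99 and 76.38 FPKM in the control, 57.41 and 54.08 in kd.1 and 104.56 and 103.95 in kd.2. It fell in kd.1 (-0.55, limma adjusted p = 0.00131), while its kd.2 call was lost without either kd.2 library (limma adjusted p = 0.0656 to 0.0739). Its relative IRAK2 fell in kd.1 too (-0.65, limma adjusted p = 0.00571). IL1RAP, the accessory chain of the interleukin-1 receptor, rose in kd.2 from 4.435 ± 0.686 to 7.74 ± 0.0424 FPKM (limma adjusted p = 0.00165), as did the lymphotoxin receptor LTBR (0.38, limma adjusted p = 0.00221). IL1R1, the signalling chain, stood at 1.96 and 1.74 FPKM in the control, 1.17 and 1.15 in kd.1 and 1.4 and 1.36 in kd.2. The receptor antagonist IL1RN was at 0.01 to 0.13 FPKM.

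**Figure D4:**
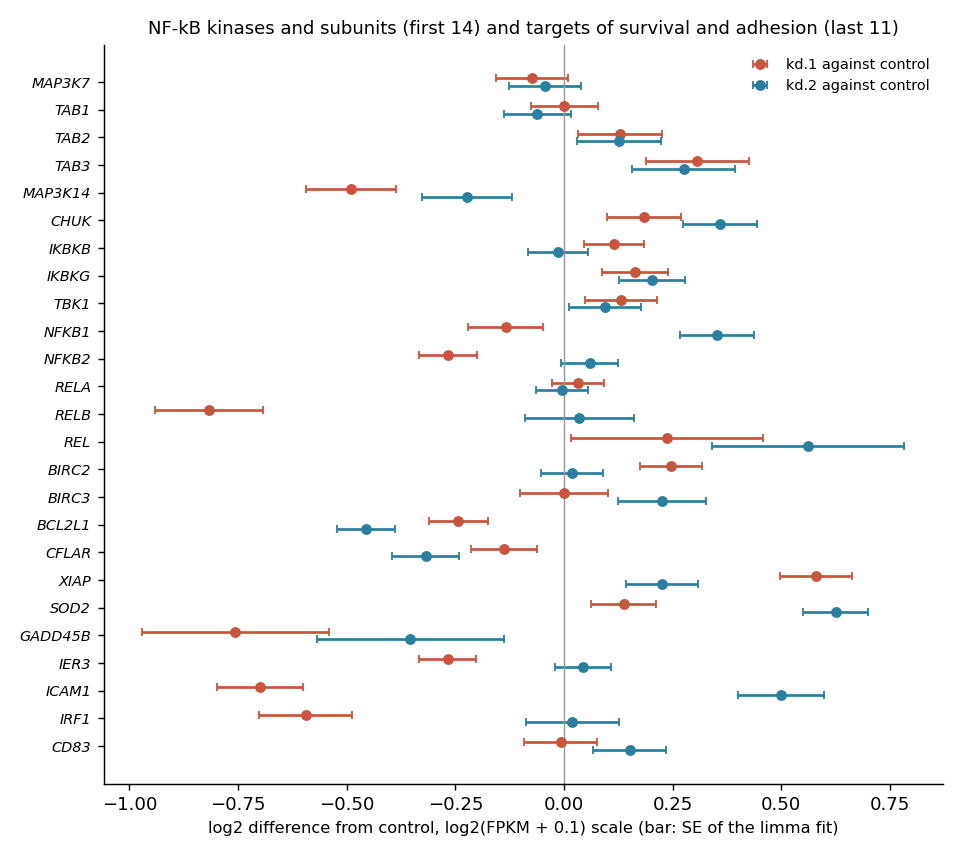
Log2 difference from control (horizontal axis) for the 14 tested NF-kB kinases and subunits and 11 tested targets in kd.1 and kd.2; points are estimates and bars the SE of the limma fit. RELA lies at 0 in both lines, and ICAM1 at -0.70 in kd.1 and 0.50 in kd.2.

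Among 17 tested inhibitors and feedback genes other than NFKBIA and TNFAIP3, 1 was called higher and 3 lower in kd.1 (5.9% and 17.6%). In kd.2 4 were called higher and 3 lower (23.5% and 17.6%). BCL3, an atypical IkB protein, fell in kd.1 (-0.50, limma adjusted p = 0.0052). It was also called lower in kd.2, at 11.73 against 15.04 FPKM in the control, but not in all alternatives. TNFAIP2, a tumour necrosis factor target, fell in kd.1 (38.45 ± 2.72 to 25.97 ± 2.93 FPKM, limma adjusted p = 0.00303). CYLD, a deubiquitinase that restrains NF-kB, rose in kd.2 from 4.335 ± 1.21 to 7.915 ± 0.262 FPKM (limma adjusted p = 0.00421). For SIGIRR, an inhibitory receptor of the interleukin-1 family, the means were 12.59, 10.0 and 8.86 FPKM.

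The interleukin-6 receptor and STAT3 genes, a list that also holds related receptor chains such as OSMR, were described in the same way. Of 14 tested, 2 were called higher and 3 lower in kd.1 (14.3% and 21.4%, beside 15.8% and 13.4% of all tested genes). In kd.2 3 were called each way (21.4% each, beside 15.7% and 22.2%). In kd.2 against kd.1 6 were called higher and 3 lower (42.9% and 21.4%, beside 11.9% and 20.3%). OSMR, the receptor chain for oncostatin M, stood at 76.31 and 60.48 FPKM in the control, 37.5 and 40.33 in kd.1 and 107.09 and 107.08 in kd.2, with no overlap. It fell in kd.1 (-0.80, limma adjusted p = 0.000908), rose in kd.2 (0.66, limma adjusted p = 0.00221) and differed between the lines by 1.46 (limma adjusted p = 3.26e-05). CEBPD, a C/EBP factor of the acute phase, fell in kd.1 from 47.08 ± 5.78 to 32.67 ± 2.18 FPKM (-0.52, limma adjusted p = 0.00452) and was 0.76 higher in kd.2 than in kd.1 (limma adjusted p = 0.00058). BCL6, a transcriptional repressor, fell in kd.1 (-0.58, limma adjusted p = 0.00282). PIM1, a kinase induced by STAT factors, was lower in kd.2 than in kd.1 (-0.63, limma adjusted p = 0.000655). The receptor chains IL6R and IL6ST had control means of 3.145 and 10.25 FPKM, and STAT3 one of 63.85. None of these 3 was called in kd.1, and their kd.2 means were 3.545, 13.29 and 79.33 FPKM. IL6ST and STAT3 were called higher in kd.2 than in the control, and all 3 higher in kd.2 than in kd.1, but not in all alternatives. SOCS3, the feedback inhibitor of STAT3, was not called in any comparison (limma adjusted p = 0.0781, 0.706 and 0.136).

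IL1B needs cleavage by an inflammasome caspase to become active. Of 7 tested processing genes 0 were called in kd.1 while 1 was called higher and 2 lower in kd.2 (14.3% and 28.6%). By limma 1 was lower in kd.1 at an unadjusted p under 0.05. CASP4, an inflammatory caspase, rose in kd.2 from 40.32 ± 2.25 to 54.19 ± 2.08 FPKM (log2 0.43, limma adjusted p = 0.00226). GSDMD, which forms the pore through which the cytokine leaves, had means of 4.685, 3.865 and 3.69 FPKM.

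Counted together, 109 of the 195 measured genes on the 11 surrounding lists were tested. In kd.1 14 were called higher and 30 lower (12.8% and 27.5%, beside 15.8% and 13.4% of all tested genes). In kd.2 19 were called higher and 26 lower (17.4% and 23.9%, close to the 15.7% and 22.2% of all tested genes), and after rescaling to a common sum 23 and 12. In kd.2 against kd.1 29 were called higher and 20 lower (26.6% and 18.3%, beside 11.9% and 20.3%), and 26 and 10 after rescaling. Median log2 differences over the 109 were -0.02, 0.02 and 0.06, beside 0.02, -0.03 and -0.05 over all tested genes. Single libraries moved these counts. Without control replicate 1, 29 were called higher in kd.1 and 33 in kd.2. Without kd.1 replicate 1 or 2, 4 and 5 were called higher in kd.1, and without kd.2 replicate 1 or 2, 8 in each case. In kd.2 the higher calls were 9 and 7 and the lower calls 7 and 8 without kd.2 replicate 1 or 2. Between the lines the higher calls were 18 without kd.1 replicate 1, 18 without kd.2 replicate 1 and 17 without kd.2 replicate 2, and the lower calls 6 and 5 without kd.1 replicate 1 or 2 and 3 and 5 without kd.2 replicate 1 or 2. Of the genes named by the fixed rule, 49 were tested, and 21 of 28 calls in kd.1, 14 of 33 in kd.2 and 16 of 35 between the lines held in all 13 alternatives. The words rose and fell above are used only for calls of that kind.

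**Figure D5:**
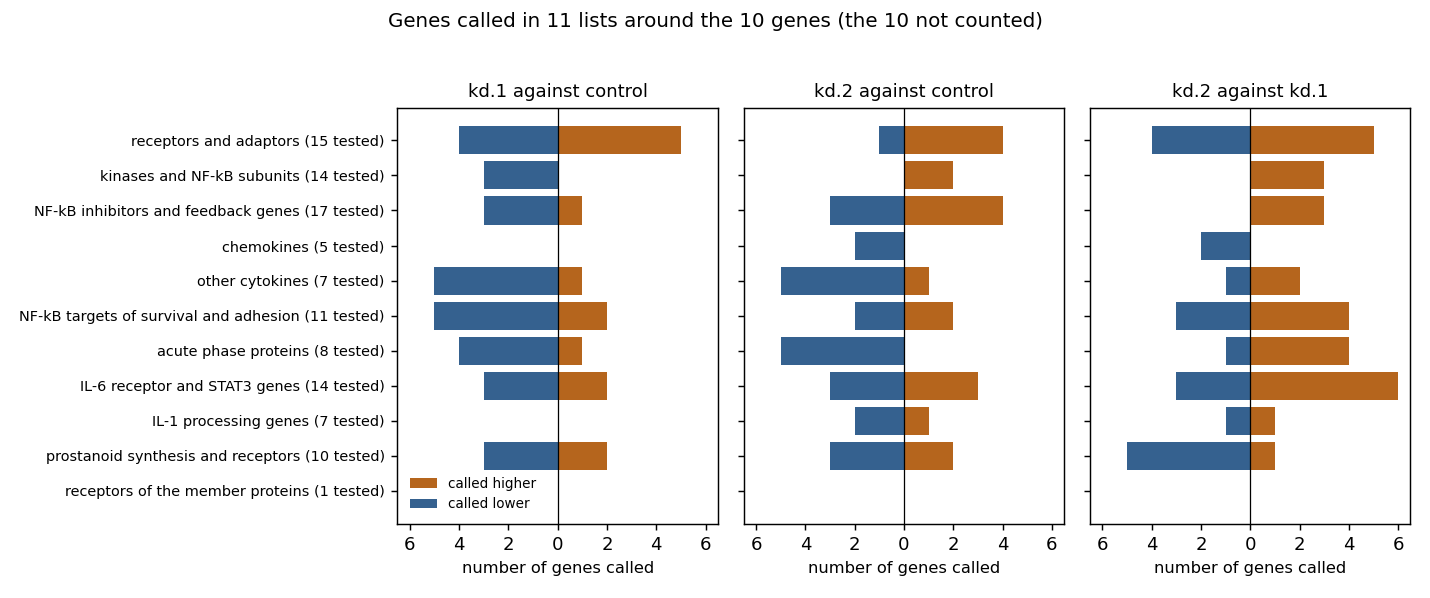
Number of genes called higher (right) and lower (left) at an adjusted p under 0.05 on each of 11 lists in 3 comparisons; the 10 genes described here are not counted. Acute phase proteins have 4 lower calls in kd.1 and 5 in kd.2, while the kinases and NF-kB subunits have 3 lower in kd.1 and 2 higher in kd.2.

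A feature of these transcripts that played no part in choosing them is the AU-rich pentamer ATTTA in the 3' UTR, known as a mark of short-lived cytokine messages. In the longest coding transcript, IL6 held 6 copies (13.99 per kb), IL1B 6 (9.84), PTGS2 22 (8.59), NFKBIA 3 (5.98) and IL1A 5 (4.34), where the median over 17078 genes was 1.47 per kb. The density of IL6 exceeded that of 99.4% of those genes and that of IL1B 98.3%. TNFAIP3 and CD180 held 5 copies each at 2.51 and 1.54 per kb, CCL2 held 1 at 2.66 per kb and SAA1 held 0. At least 5 copies were in 25.5% of all genes counted. LCN2 was not counted, its 3' UTR being under 50 bases in the transcript used. The dense group spans genes that stood higher in kd.1 (IL1A, IL1B, PTGS2), lower (NFKBIA) and overlapping (IL6).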

How the data were processed

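RNA of 6 libraries in 3 groups of 2 was measured as 1 table of 21372 features. Per the submitters' processing notes, RSEM 1.2.12, Bowtie2 2.2.5 and HISAT2 2.0.4 were used, with hg38 and GRCh38.p11 named as builds; their roles are not given in the sources used here. The deposited values, though filed as counts, are decimals (0.6% of nonzero values are whole) and were taken as FPKM, inferred from the values. No count was available, so depth is not known and counting intervals were left out. Steps between low values put relative depth roughly at 0.917 to 1.05 of the first control library. The threshold was loosened after stricter ones left too few features, and the estimate moved with it. Only features whose ratio to that library was already near 1 were used, 19 to 42 in each other library. The estimate therefore could not have shown a large difference in depth.

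The 1869 features with no gene name were left out. Limma 3.58.1 in R 4.3.3 was fitted to log2(FPKM + 0.1) of the 10851 genes that 2 or more libraries held at 1 FPKM or above, with 1 mean per group over all 6 libraries, trend and robust moderation, and Benjamini-Hochberg adjustment over all tested genes within a comparison. Both comparisons with control share its libraries. SDs are over 2 libraries and SEs are of the fit. The 10 genes, the 11 surrounding lists and the marker lists were chosen with earlier results of these data known.

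The genes named in the text are the 10 in every library; 21 fixed genes, ZNF281 and SAA2 among them; up to 4 tested genes per list with the smallest p; and the 2 closest profiles for the 3 most abundant of the 10. Cell type markers, neighbouring genes and the untested or otherwise unranked acute phase genes (CP, SERPINA1, CRP, HP, ORM1 and the fibrinogen genes) fall outside that rule and were named after their values were seen. The same holds for the receptor and adaptor genes TLR6, IRAK4, TRADD, RIPK1 and TICAM1. Coordinates and 3' UTRs came from GENCODE on GRCh38, promoters from RefSeq on GRCh38.p14, restricted after the data were seen to the 250 bases before the start. The neighbour window of 300000 bases was also chosen then. Alternatives were the pseudocount, no filter, a common sum, a replicate block, plain moderation, 4-library fits and leaving out each library.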

Additional observations from a re-analysis of the deposited data

Results flagged for a closer look

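Among the 10 genes, 4 stood on opposite sides of the control mean in the 2 knockdown lines. Both kd.1 libraries were on one side and both kd.2 libraries on the other. Of these, CCL2 overlapped the control in kd.2, at a log2 difference of 0.21. The log2 difference of kd.2 from kd.1 was 3.48 for CCL2, 2.99 for CD180, -2.13 for IL1A and -2.60 for IL1B. These genes were picked on their values, so that the fit offers no independent test of the difference and no p is given: by that standard it was not tested.

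Limma called 35 of the 49 tested named genes different between kd.2 and kd.1, all of them on the surrounding lists. Over all tested genes 11.9% were called higher and 20.3% lower. Up to 4 genes per list were named for the smallest p in these same comparisons, so nothing is read from the count of 35. Among the 35, those with lower levels in kd.2, as log2 differences, were PTGER4 -0.86, IL15 -0.75, PIM1 -0.63, HPGD -0.41, XIAP -0.35, CXCL16 -0.32, HAX1 -0.31, CCL5 -0.30, PLA2G4A -0.24 and BCL2L1 -0.21. PTGER4, a prostaglandin E2 receptor gene, and IL15 were at the far end of that side; the call of IL15 held in all 13 alternatives, and that of PTGER4 was lost without kd.2 replicate 1 (limma adjusted p = 0.0501).

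Log2 differences with higher levels in kd.2 were OSMR 1.46, ICAM1 1.199, C1R 1.16, IRAK2 0.95, IRAK1 0.90, RELB 0.85, PTGS1 0.81, CFB 0.76 and CEBPD 0.76 in the upper part of the range. OSMR, the oncostatin M receptor chain, and ICAM1 stood at the top, followed by C1R, and each of these held in all 13 alternatives. The middle part was OSM 0.74, CYLD 0.68, C1S 0.65, IL1RAP 0.58, SOD2 0.49, NFKB1 0.49, STAT3 0.44, IL6ST 0.41 and BCL6 0.41. The smallest were C3 0.40, CASP4 0.39, TNFAIP2 0.37, NFKB2 0.33, LTBR 0.31, IL6R 0.30 and IL18 0.20. Of the 35 calls between the lines, 16 held in all 13 alternatives. The cause of these differences was not tested.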

How the results depend on the processing

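The 13 alternatives gave 319 values within 1 SD of the log2 difference reported for the 10 genes and 23 outside it, most at low levels under another pseudocount. For ZNF281 and the genes on the surrounding lists that the text names, 1066 values kept a call, 182 lost one, 31 gained one and 632 stayed uncalled. Fitting only the 4 libraries compared gave 8 higher calls in kd.1 in place of 14. Rescaling to a common sum gave 12 lower calls in kd.2 in place of 26 and 10 between the lines in place of 20. Leaving out each library gave 4 to 29 higher and 21 to 35 lower calls in kd.1, 7 to 33 and 7 to 26 in kd.2, and 17 to 42 and 3 to 27 between the lines; with 1 library left in a group its spread is assumed to be like that of the other groups. The cause was not tested.

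The duplicates share numbers across groups, but same-numbered libraries did not deviate together (correlations of 0.022, -0.087 and 0.183). A replicate block gave 14 higher and 30 lower calls in kd.1, 18 and 24 in kd.2 and 27 and 18 between the lines. Unknown depth limits what can be said of IL6, SAA2 and other genes under 1 FPKM.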
